A study of Homo sapiens with 65 samples.

Results

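TBXT, EOMES, MIXL1, GSC, LHX1 and EVX1 are transcription factors of the primitive streak, and they were chosen by name as 6 of the 58735 genes counted in human left-ventricular cardioids. Cardioids are self-organising heart-like aggregates, grown here from WTC-11, a human line of induced pluripotent stem cells. The 65 libraries were read at the 3′ ends of transcripts. The submitters' notes give 8 pooled cardioids per library, though the cells of day 1.5 were not yet aggregated. The genotype arm set wild-type cardioids (WT) beside HAS2 knockout clones (KO); HAS2 is a synthase of the matrix polymer hyaluronan. It held 5 WT and 6 KO libraries on day 1.5, 6 of each on days 2.5 and 4.5, and 3 of each on day 7.5. The enzyme arm compared untreated cardioids with cardioids that received hyaluronidase, an enzyme that digests hyaluronan, starting on day 1.5 (called HAse1.5) or on day 2.5 (called HAse2.5), with 3 libraries in each of 8 groups at days 2.5, 4.5 and 7.5. It had no day 1.5 libraries, and no HAse2.5 libraries at day 2.5. KO libraries came from the clones cl4, cl14, cl46 and cl51, and WT libraries were named cl43_WT_UT, TNT2, WT and WT_TU. On days 1.5, 2.5 and 4.5 the KO libraries were cl4_R1, cl4_R2, cl4_R3, cl14_R1, cl46_R1 and cl51_R1. Repeat libraries of clone cl4 are not separate knockouts. The enzyme arm used the lines TNNI1, WT and TNNT2. All groups shared the same media: until day 1.5 the cells were held with Activin A, BMP4, FGF2, the GSK3 inhibitor CHIR99021 and the PI3K inhibitor LY294002, then dissociated, reseeded as aggregates and given BMP4, FGF2, insulin, retinoic acid and C59, a blocker of WNT secretion.

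The primitive streak is the transient structure through which cells of the early embryo pass to become mesoderm and endoderm. NODAL and WNT signals switch on its transcription factors, which are normally lost again as cells leave the streak and become, among other fates, cardiac mesoderm. TBXT (Brachyury) and EOMES are T-box factors at the head of this network, MIXL1, GSC and EVX1 are homeodomain factors, with GSC a marker of the anterior end and EVX1 of the posterior end, and LHX1 is a LIM-homeodomain factor of the anterior streak that later also acts in intermediate mesoderm and kidney.

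Promoter windows from 250 bases before to 50 bases after a RefSeq transcript start (GRCh38.p14) were found for 5 of the 6 genes, all but LHX1. They were searched on both strands for a T-box motif (AGGTGTGA), a TCF/LEF motif (CTTTGAA), a FOXH1 motif (AATCCACA) and a bicoid-type homeodomain motif (TAATCC), which can overlap the FOXH1 motif at the letters AATCC. Across 35116 windows of this length, 0.98%, 4.43%, 0.82% and 6.36% held these motifs, in that order. The 2 matches, of different motifs, lay upstream of TBXT and MIXL1, the 2 members with the highest correlation over the 16 group means. Their windows are shown for that reason, outside annotated exons, with the match in capitals. TBXT and GSC were nearly as alike (Pearson's r 0.977), and the GSC window held no match. TBXT at chr6:166167878-166168101, minus strand, upstream of the more downstream of its 2 listed starts, holds the TCF/LEF motif on the opposite strand, 88 bases before that start. MIXL1 at chr1:226223414-226223617, plus strand, holds the FOXH1 motif on the opposite strand, 249 bases before its start.
TBXT: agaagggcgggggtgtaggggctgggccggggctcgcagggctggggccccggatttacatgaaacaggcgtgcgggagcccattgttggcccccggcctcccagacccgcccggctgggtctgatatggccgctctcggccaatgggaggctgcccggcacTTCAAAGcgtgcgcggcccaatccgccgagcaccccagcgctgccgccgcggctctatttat
MIXL1: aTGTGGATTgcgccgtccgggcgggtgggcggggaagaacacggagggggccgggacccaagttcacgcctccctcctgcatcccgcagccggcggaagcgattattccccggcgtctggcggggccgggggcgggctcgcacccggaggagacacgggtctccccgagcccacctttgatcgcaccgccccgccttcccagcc
The windows of EOMES, GSC and EVX1 and the other TBXT window held none of these letters.

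Levels are given as CPM, the count of a gene scaled to a library total of 1000000. Library totals ranged from 831062, in KO cl4_R1 at day 2.5, to 3574843, with a median of 1570954, and the floor of a group was set at 3 counts per library. Summed CPM of 6 cardiomyocyte markers was 14.5 to 107 at day 1.5 and 19564 to 25822 at day 7.5 in the genotype arm, so the later libraries carried the markers of their labelled tissue. HAS2 itself had 657 ± 192 CPM in WT and 582 ± 174 CPM in KO at day 2.5 (SD, n = 6 and 6); the labels do not give the deleted part, so 3′ counts do not check the KO label. These are bulk samples, in which fewer cells of a type and less RNA per cell cannot be told apart, and p-values measure the spread between these libraries.

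At day 1.5, before aggregation, all 6 genes were counted in all 11 libraries, and none differed between KO and WT. In WT, MIXL1 had 1308, 1624, 1536, 1403 and 1934 CPM, and in KO it ranged from 1432 over a median of 1560.5 to 2824 CPM. LHX1 had 2842, 2606, 2692, 2206 and 2715 CPM in WT and 1476, 2218 and 2939 CPM (lowest, median, highest) in KO. EOMES had 1756, 2065, 1180.1, 1237 and 1385 CPM in WT and 1075, 1222 and 2536 CPM in KO. The ranges of KO and WT overlapped for each of these genes.

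The other 3 genes were an order of magnitude lower in read counts, which for 3′ reads are not corrected for transcript length. GSC had 109, 148, 89.3, 69.7 and 97.7 CPM in WT and 81.8 to 169 CPM in KO. TBXT had 83.1, 40.9, 58.0, 98.9 and 56.8 CPM in WT and 32.7 to 129.7 CPM in KO, and EVX1 had 46.7, 32.8, 30.8, 48.7 and 60.5 CPM in WT and 37.6 to 60.7 CPM in KO. By edgeR's quasi-likelihood test, the log2 differences of KO from WT ran from -0.24 for LHX1 to 0.16 for MIXL1, with 95% intervals inside -0.93 to 0.87, and Benjamini-Hochberg adjusted p of 0.938 or more. Of 13797 genes tested, 0 (0%) were called, that is, had an adjusted p under 0.05, and 591 (4.28%) had an unadjusted p under 0.05, none of them a member; DESeq2 called no member either.

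Library numbers of the genotype arm fell into 3 stretches, here called A for R1 of WT, WT_TU and cl4, B for R2 of the same lines, and C for the rest; nothing says that a stretch is a batch. EOMES at day 1.5 followed the stretch rather than the genotype: 1756 to 2536 CPM in the 3 A libraries, 1180.1 to 1263 in the 2 B libraries and 1075 to 1459 in the 6 C libraries. EVX1 was 30.8 to 46.7 CPM in A and B and 48.7 to 60.7 CPM in C. Within stretch A, EOMES was higher in the KO library (2536 CPM) than in the WT libraries (1756 and 2065 CPM), and LHX1 was lower (1476 against 2606 and 2842 CPM).

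**Figure D1:**
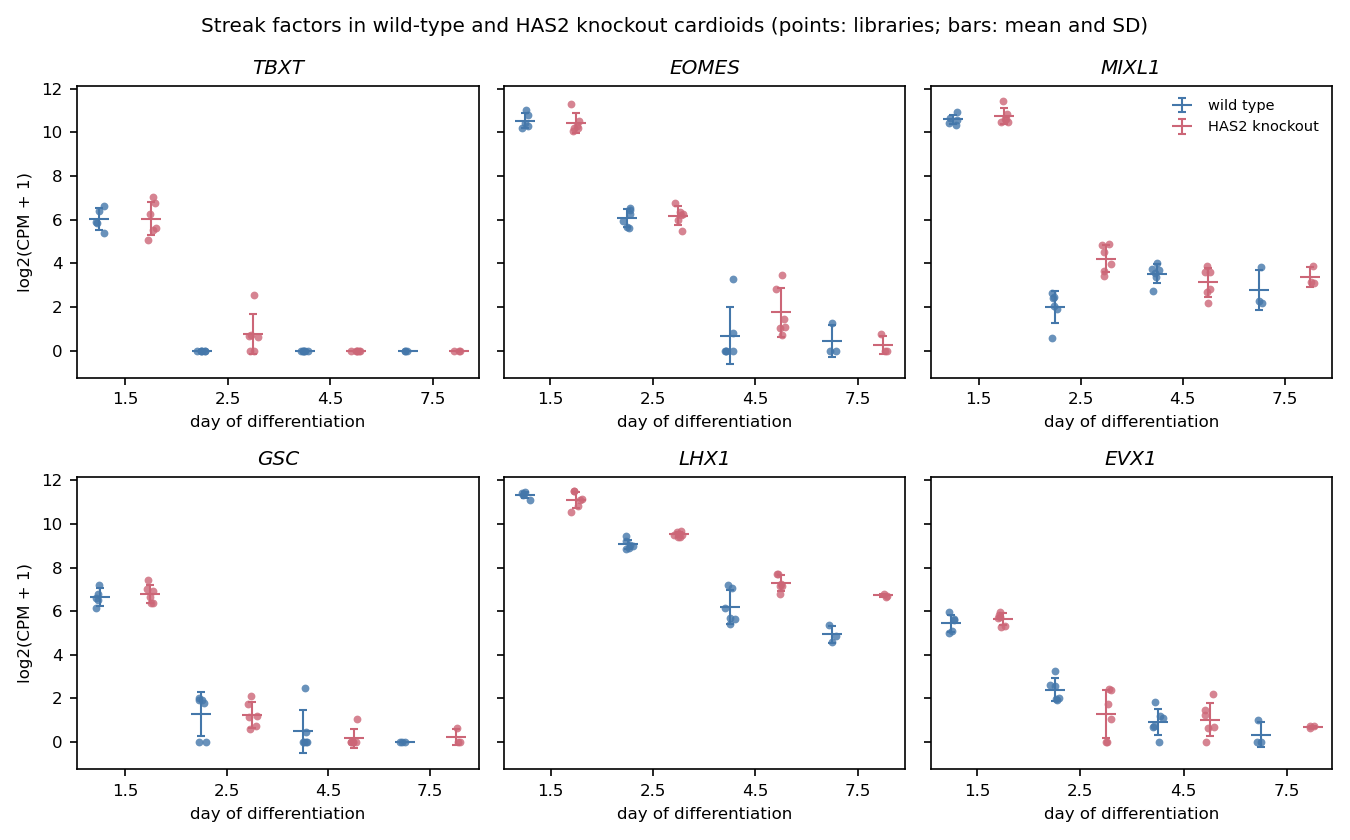
Level of each gene as log2(CPM + 1) (y axis) against day of differentiation (x axis), with points for single libraries and bars for the mean and SD of WT (blue) and KO (red). All 6 genes drop between day 1.5 and day 2.5 in both genotypes; KO and WT stand apart for MIXL1 at day 2.5 (9.55 to 28.1 against 0.510 to 5.14 CPM) and LHX1 at day 7.5 (100.2 to 111 against 23.1 to 40.5 CPM).

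Between day 1.5 and day 2.5, the first day in aggregates, all 6 genes fell in WT. TBXT went from 110 to 297 counts per library to 0 in all 6 WT libraries, at least 43.7-fold lower when 3 counts per library are allowed. MIXL1 fell to 0.510, 3.68 and 5.14 CPM (lowest, median, highest), a log2 change of -9.01 ± 0.41 (SE), and GSC to between 0 and 3.08 CPM, a change of -6.01 ± 0.51. EOMES fell to 47.4, 67.8 and 92.2 CPM, a change of -4.70 ± 0.47, and EVX1 to 2.79, 4.04 and 8.67 CPM, a change of -3.44 ± 0.41. LHX1 fell least in log2 terms, to 456, 512 and 693 CPM, a change of -2.49 ± 0.23. The adjusted p of edgeR's quasi-likelihood test was 1.32e-08 or lower for each gene, and 15.1% of all genes tested were called lower over this day. The ranges of the 2 days did not overlap for any of the 6, as was so for 5.44% of all genes in this direction. The median change of the 6 genes was -5.36, against 0.01 over all genes tested.

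The same 6 genes fell in KO over this day, where 16.1% of all genes tested were called lower. The log2 changes were -6.75 ± 0.36 for MIXL1, -6.65 ± 0.57 for TBXT, -6.33 ± 0.53 for GSC, -4.67 ± 0.45 for EVX1, -4.53 ± 0.46 for EOMES and -1.84 ± 0.22 for LHX1, with adjusted p of 2.09e-08 or lower (edgeR's quasi-likelihood test). Their median change was -5.50, against 0.02 over all genes tested.

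Completeness of this fall was read as the CPM at day 2.5 in percent of the CPM in the like-named library at day 1.5, over 5 WT and 6 KO names. Libraries of 1 name share a line and any R number, and are separate samples. In WT the median left was 0% of TBXT, 0.229% of MIXL1, 2.08% of GSC, 4.47% of EOMES, 11.0% of EVX1 and 19.8% of LHX1. In KO it was 0.772% of TBXT, 0.994% of MIXL1, 1.11% of GSC, 5.58% of EOMES, 2.88% of EVX1 and 34.1% of LHX1. For MIXL1 the ranges did not overlap, 0.0363% to 0.393% in WT and 0.609% to 1.96% in KO. The share of all genes that lie apart by this measure was not computed. For LHX1 they overlapped, 16.9% to 26.6% in WT and 23.2% to 49.4% in KO. EVX1 was lower in KO by this measure, with 0% to 8.45% left against 4.88% to 17.8% in WT, again overlapping.

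**Figure D2:**
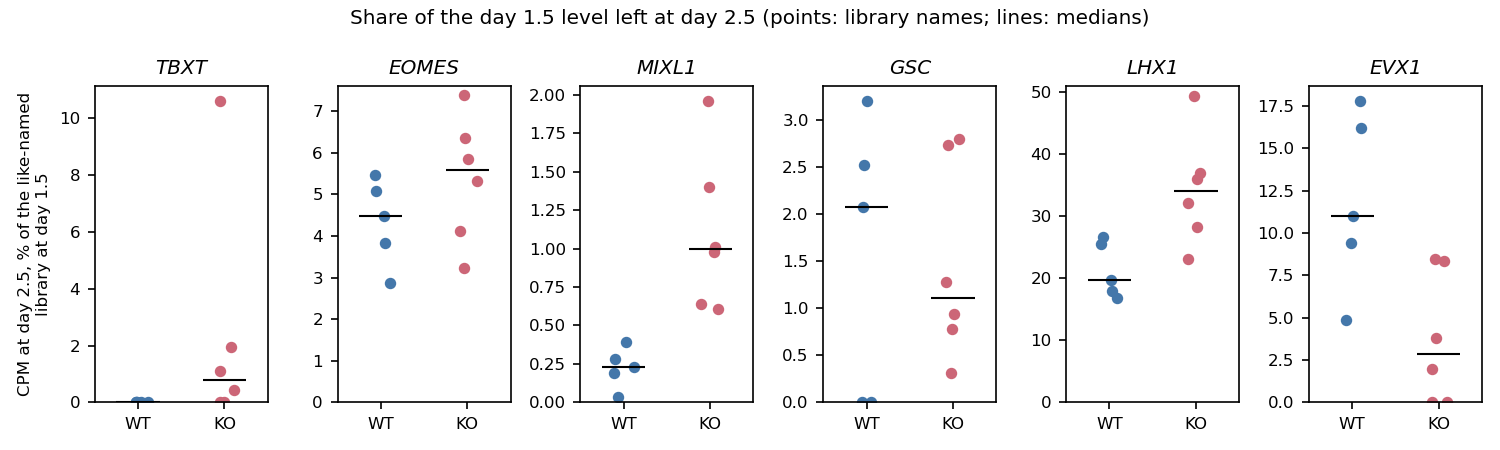
CPM at day 2.5 as a percent of the like-named library at day 1.5 (y axis, starting at 0, with a scale of its own for each gene) in WT and KO (x axis); points are library names and lines are medians. MIXL1 points of the 2 genotypes do not overlap, and those of the other 5 genes do. The share of all genes that lie apart by this measure was not computed.

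At day 2.5, 1 of the 6 genes differed between KO and WT. MIXL1 was 0.510, 3.68 and 5.14 CPM (lowest, median, highest) in WT, from 1 to 14 counts per library, and 9.55, 18.1 and 28.1 CPM in KO, from 12 to 53 counts. Every KO library was above every WT library, as was so for 1.17% of all genes, and this held within each stretch: 14.4 CPM against 3.08 and 5.14 in A, 9.55 against 2.79 and 4.28 in B, and 11.7 to 28.1 against 0.510 and 4.42 in C. The log2 difference was 2.42 ± 0.36 (SE; 95% interval 1.69 to 3.15) with an adjusted p of 1.17e-04 by edgeR's quasi-likelihood test, in a comparison where 0.493% of all genes tested were called higher. It passed the threshold in all 18 alternatives run.

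None of the other 5 genes passed the threshold at day 2.5. LHX1 was 456, 512 and 693 CPM in WT and 677, 719 and 818 CPM in KO, ranges that overlapped through the WT library TNT2, which lay above the KO libraries cl51_R1 and cl4_R2, with a log2 difference of 0.41 (95% interval -0.03 to 0.84; adjusted p = 0.510). EOMES was 47.4 to 92.2 CPM in WT and 44.2 to 108 CPM in KO, a difference of 0.06 (interval -0.76 to 0.88; adjusted p = 0.965), and GSC 0 to 3.08 CPM and 0.522 to 3.34 CPM, a difference of -0.22 (interval -1.62 to 1.19; adjusted p = 0.920). EVX1 was 2.79 to 8.67 CPM in WT and 0 to 4.47 CPM in KO, with 2 KO libraries at 0 counts, a difference of -1.09 (interval -2.09 to -0.09; adjusted p = 0.410). These intervals and p-values are from edgeR's quasi-likelihood fit.

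TBXT was at 0 counts in the 6 WT libraries at day 2.5 and at 4, 1, 0, 1, 0 and 1 counts in the 6 KO libraries, the 4 counts being in cl4_R1, the library with the lowest total (831062). Its adjusted p was 0.266 by edgeR's quasi-likelihood test, and no fold is given, since WT is at the floor and KO close to it. A count of 0 allows up to 1.54 CPM as the mean of the WT libraries at day 2.5.

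Whether MIXL1 fell by less in KO than in WT over the first day in aggregates was tested directly. The log2 changes differed by 2.26 ± 0.46 (95% interval 1.33 to 3.18; adjusted p = 0.0382, edgeR's quasi-likelihood test of the difference), in a comparison where 0.0362% of genes tested were called higher. By the same test the adjusted p was 0.00289 with a replicate block by library name and 0.00722 with a block of library numbers. DESeq2 also called the difference, as did 19 of the 29 alternatives in all. It was lost, with adjusted p between 0.0518 and 0.0895 and differences between 2.04 and 2.31, when only these 4 groups were fitted and without any 1 of WT_TU_R1, cl4_R2, cl4_R3 or cl51_R1 at day 1.5, or WT_R2, WT_TU_R2, cl43_WT_UT, cl14_R1 or cl51_R1 at day 2.5. The differences for LHX1 (0.65 ± 0.31), EOMES (0.17 ± 0.58) and EVX1 (-1.23 ± 0.61) did not pass the threshold, each with adjusted p = 1.00.

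Between day 2.5 and day 4.5 the genes parted. In WT, 3 of the 6 fell further, where 15.9% of all genes tested were called lower: EOMES by -5.47 ± 0.58, to 0 CPM in 4 of 6 libraries and 0.720 and 8.66 CPM in the other 2; LHX1 by -2.70 ± 0.23, to 41, 59.5 and 148 CPM; and EVX1 by -1.94 ± 0.52, to between 0 and 2.52 CPM. MIXL1 rose in WT over the same days, where 18.6% of all genes were called higher. It went to 5.64, 11.3 and 15.0 CPM, all above the day 2.5 libraries (8.97% of genes were so), a change of 1.70 ± 0.37 (adjusted p = 2.97e-04). The adjusted p of the 3 falling genes was 0.00321 or lower (edgeR's quasi-likelihood test), and TBXT was at 0 and GSC at 10 counts or fewer in every library of both days.

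In KO, 3 of the 6 genes fell between day 2.5 and day 4.5, where 14.9% of all genes tested were called lower. EOMES fell by -4.49 ± 0.53, to 0.611, 1.41 and 9.97 CPM, and LHX1 by -2.19 ± 0.23, to 111, 146 and 208 CPM. MIXL1 fell by -1.17 ± 0.33 (adjusted p = 0.00569, edgeR's quasi-likelihood test), to 3.47, 8.55 and 13.5 CPM, a range that overlaps that of day 2.5. DESeq2 also called TBXT and GSC lower here, for 5 of the 6.

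The difference between the MIXL1 changes of the 2 genotypes over these days was -2.87 ± 0.50 (95% interval -3.87 to -1.86; adjusted p = 0.00136, edgeR's quasi-likelihood test), where 0.275% of genes tested were called lower. It kept its call in all 30 alternatives. This test shares its day 2.5 libraries with the KO against WT test of that day and with the earlier difference of changes. These are therefore not separate results. At day 4.5 itself MIXL1 did not differ between KO (3.47 to 13.5 CPM) and WT (5.64 to 15.0 CPM), a difference of -0.45 (interval -1.13 to 0.24; adjusted p = 0.488), and at day 7.5 it was 7.48, 7.81 and 13.9 CPM in KO and 3.59, 3.88 and 13.3 CPM in WT, a difference of 0.49 (interval -0.54 to 1.52; adjusted p = 1.00).

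LHX1 was the gene of the 6 that differed between the genotypes at the later days. At day 4.5 WT had 41, 59.5 and 148 CPM and KO 111, 146 and 208 CPM (lowest, median, highest), ranges that overlapped. The log2 difference was 0.91 ± 0.22 (adjusted p = 0.0133, edgeR's quasi-likelihood test), where 1.14% of all genes tested were called higher. The call was lost when only these 2 groups were fitted (adjusted p = 0.123) and without the WT library WT_R1 (adjusted p = 0.0565). The WT libraries parted by stretch: within A, KO had 111 CPM and WT 50.0 and 69.1; within B, 149 against 41 and 48.8; within C, 142 to 208 against 134 and 148, which overlap.

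At day 7.5 LHX1 was 23.1, 40.5 and 27.8 CPM in WT and 100.2, 111 and 102 CPM in KO, with every KO library above every WT library. These KO libraries were cl4_R2, cl4_R3 and cl14_R1, from the clones cl4 and cl14 alone. The log2 difference was 1.74 ± 0.33 (95% interval 1.07 to 2.41; adjusted p = 0.00349, edgeR's quasi-likelihood test), where 0.0580% of all genes tested were called higher and 9.11% had all KO libraries above all WT libraries. Without the WT library WT_R1 the adjusted p was 0.0595; the call held in the other 11 of 12 alternatives. WT libraries of this day came from stretches A and B and KO libraries from B and C, so the value within a stretch rests on B alone, with 100.2 CPM in 1 KO library and 27.8 and 40.5 CPM in 2 WT libraries.

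LHX1 was also the gene called lower after day 4.5, in WT alone. In WT it fell by -1.38 ± 0.30 to day 7.5 (adjusted p = 0.00463, edgeR's quasi-likelihood test), where 1.44% of genes tested were called lower. This was lost when only the 2 groups were fitted (adjusted p = 0.199) and without WT_R1 (0.0651) or WT_TU_R2 (0.0569) of day 7.5. In KO the change was -0.55 ± 0.28 (adjusted p = 0.303; 0.0441 with library names as a replicate block), with the ranges of the 2 days just apart at 111 to 208 and 100.2 to 111 CPM (8.56% of genes were apart in this direction); 3.02% of genes tested were called lower there. No other member was called between these days in either genotype. EOMES in KO, at the floor on day 7.5, had an unadjusted p of 0.0165 (adjusted p = 0.155, edgeR's quasi-likelihood test). Its pooled ratio was 14.7 lower at day 7.5 (exact counting interval 2.45 to 599).

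EOMES was near the floor after day 2.5, and its comparison at day 4.5 turned on 1 library. WT had 0, 0.720, 0, 0, 0 and 8.66 CPM and KO 1.02, 0.611, 6.05, 9.97, 1.08 and 1.74 CPM, with all 6 KO libraries above 0. The log2 difference was 1.04 ± 0.73 (adjusted p = 0.446, edgeR's quasi-likelihood test); without the WT library TNT2, which had 15 of the 17 WT counts, it was 3.61 with an adjusted p of 0.0100. At day 7.5 it was at 0 in 2 of 3 libraries of each genotype.

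**Figure D3:**
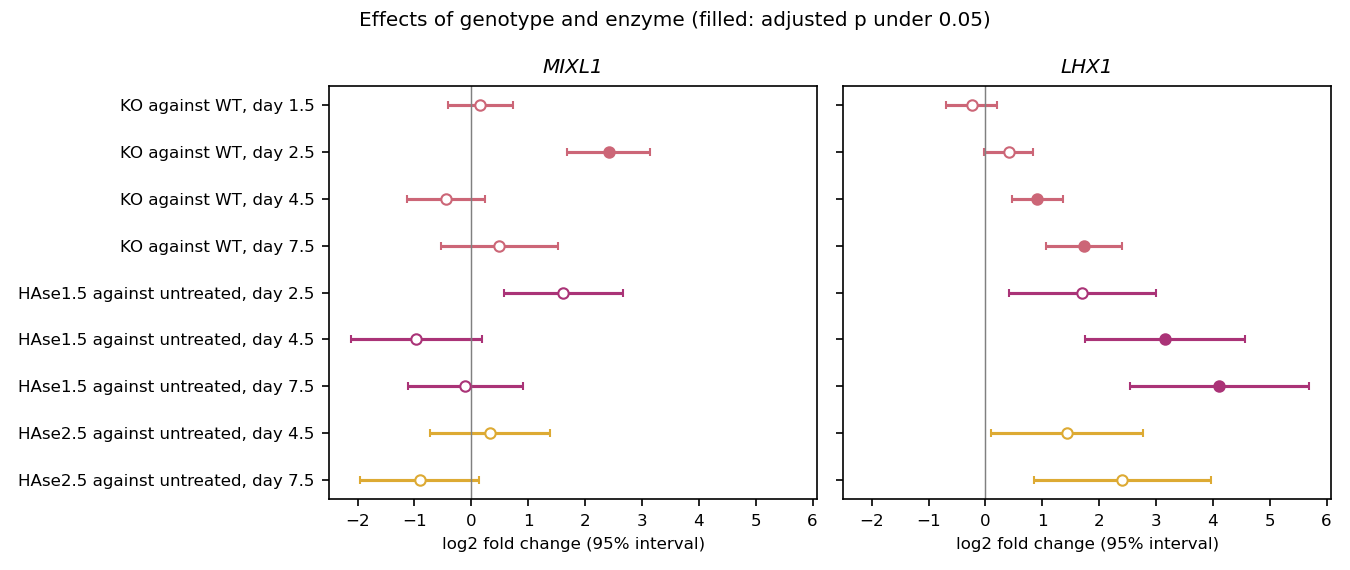
Log2 difference of KO from WT (red), of HAse1.5 from untreated (purple) and of HAse2.5 from untreated (yellow) on the x axis, with 95% intervals, for MIXL1 and LHX1 at each day (y axis). Filled points have an adjusted p under 0.05 in edgeR fits that left out the line. MIXL1 has its filled point at day 2.5 in KO (2.42), and LHX1 has its filled points at days 4.5 and 7.5 in KO (0.91 and 1.74) and in HAse1.5 (3.16 and 4.11).

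In the enzyme arm TBXT and GSC did not pass the filter on low counts, so 4 of the 6 genes were tested. EVX1 reached 10 counts in HAse1.5 libraries alone (15 and 16 counts at day 2.5, 20 at day 4.5). It passed the filter through that group, so its higher level there is in part set by the filter. TBXT was at 0 in all untreated and HAse2.5 libraries, and in HAse1.5 it had 10 counts (6.25 CPM) in the TNNT2 line and 0 in the others at day 2.5, and 1 count at day 4.5. GSC was 2.04, 0 and 3.36 CPM in untreated and 8.92, 2.40 and 4.37 CPM in HAse1.5 at day 2.5 (lines TNNI1, WT and TNNT2, the order used from here on), and no library had more than 1 count of it later.

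At day 2.5, after the first day of enzyme, all 4 tested genes were higher in every HAse1.5 library than in every untreated library. For EVX1, which was tested through its HAse1.5 libraries alone, this is not separate support. None of the 4 passed the threshold in the fit that left out the line. LHX1 was 1142, 789.7 and 799 CPM untreated and 3736, 2176 and 3240.0 CPM in HAse1.5, which is 3.27, 2.76 and 4.06 times the untreated library of the same line. EOMES was 115, 59.0 and 97.6 CPM untreated and 327, 134 and 322 CPM in HAse1.5, or 2.85, 2.27 and 3.30 times. MIXL1 was 3.57, 7.15 and 12.3 CPM untreated and 21.3, 24.0 and 28.1 CPM in HAse1.5. EVX1 was 3.57, 1.79 and 4.49 CPM untreated and 10.3, 6.39 and 9.99 CPM in HAse1.5. For each of the 4 the groups did not overlap, as was so for 6.79% of genes in this direction, while 1.14% of genes were called in either direction.

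The log2 differences at day 2.5 were 1.70 ± 0.62 for LHX1 (adjusted p = 0.296), 1.62 ± 0.51 for MIXL1 (0.156), 1.47 ± 0.69 for EOMES (0.529) and 1.33 ± 0.67 for EVX1 (0.578), by edgeR's quasi-likelihood test over 12748 genes. LHX1, MIXL1 and EOMES had an unadjusted p under 0.05, and DESeq2 called 0 of the 4. The replicate number marks the line in this arm, and with the line as a replicate block LHX1 passed the threshold (1.66, adjusted p = 0.0204), as it did when only these 2 groups were fitted (adjusted p = 0.0120).

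At day 4.5 LHX1 was again higher in HAse1.5, with 1627, 189 and 899.8 CPM against 152, 62.2 and 68.8 CPM untreated. All HAse1.5 libraries were above all untreated ones, and the WT line showed the smallest ratio (3.04, against 10.7 in TNNI1 and 13.1 in TNNT2). The log2 difference was 3.16 ± 0.67 (95% interval 1.76 to 4.56; adjusted p = 0.0110, edgeR's quasi-likelihood test), where 1.07% of genes tested were called higher and 12.7% had all HAse1.5 libraries above all untreated ones. The call held in 7 of 11 alternatives and was lost when only these 2 groups were fitted (adjusted p = 0.201), without the HAse1.5 library of line TNNI1 (2.43, adjusted p = 0.0744), and without the untreated library of line WT (0.0607) or TNNT2 (0.0632).

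EOMES at day 4.5 was 68.3, 0.864 and 11.1 CPM in HAse1.5 and 4.78, 0 and 1.39 CPM untreated. The HAse1.5 library of line WT lay below 2 of the 3 untreated libraries, and within each line the enzyme library was the higher. The log2 difference was 3.50 ± 1.10 (adjusted p = 0.0973, edgeR's quasi-likelihood test); with the line as a replicate block it was 3.30 with an adjusted p of 0.0210, and without the HAse1.5 library of line WT 4.01 with 0.0153.

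EVX1 was 5.59, 5.19 and 11.6 CPM in HAse1.5 and 2.05, 2.66 and 1.39 CPM untreated at day 4.5. The groups did not overlap, as was so for 12.7% of genes in this direction. As untreated libraries held 2 or 3 counts each, the pooled ratio was 3.93, with an exact counting interval of 1.79 to 9.80, and the adjusted p was 0.243 (edgeR's quasi-likelihood test). MIXL1 was 3.72, 7.78 and 6.98 CPM in HAse1.5 and 6.82, 20.4 and 7.65 CPM untreated, lower in each line, with a difference of -0.97 (interval -2.11 to 0.18; adjusted p = 0.492).

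At day 7.5 LHX1 was 362, 149.6 and 468 CPM in HAse1.5 and 27.7, 8.93 and 17.1 CPM untreated, or 13.1, 16.7 and 27.5 times the untreated library of the same line. The log2 difference was 4.11 ± 0.75 (95% interval 2.54 to 5.69; adjusted p = 0.00488, edgeR's quasi-likelihood test), where 1.41% of genes tested were called higher and 10.8% had all HAse1.5 libraries above all untreated ones. The call held in all 11 alternatives. MIXL1 was 24.5, 12.2 and 14.6 CPM in HAse1.5 and 6.25, 22.3 and 21.5 CPM untreated, higher in 1 line and lower in 2 (difference -0.11, interval -1.12 to 0.90; adjusted p = 0.942). EOMES, EVX1, GSC and TBXT had 5 counts or fewer in every library of the enzyme arm at this day.

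Enzyme given from day 2.5 left the 4 tested genes without a call in the fit that left out the line. LHX1 at day 4.5 was 314, 98.4 and 376 CPM in HAse2.5, against 152, 62.2 and 68.8 CPM untreated; it was higher in each line, the groups overlapped, and the log2 difference was 1.43 ± 0.64 (adjusted p = 0.654, edgeR's quasi-likelihood test), where 0.220% of genes tested were called in either direction. At day 7.5 it was 109, 60.4 and 120.5 CPM against 27.7, 8.93 and 17.1 CPM, with all HAse2.5 libraries above all untreated ones (9.55% of genes were so). This difference was 2.41 ± 0.74 (adjusted p = 0.169), where 0.659% of genes were called in either direction; it was 2.44 with 0.0122 with the line as a replicate block and 2.37 with 0.0326 by DESeq2.

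EOMES in HAse2.5 at day 4.5 was 7.19, 3.12 and 13.5 CPM, higher than untreated in each line, with a log2 difference of 1.80 (interval -0.85 to 4.45; adjusted p = 0.920). MIXL1 in HAse2.5 was 9.34, 16.4 and 18.0 CPM at day 4.5 and 6.23, 14.8 and 7.20 CPM at day 7.5, differences of 0.33 (interval -0.73 to 1.38) and -0.91 (interval -1.96 to 0.14) from untreated with adjusted p of 1.00 and 0.442. These tests are edgeR's, as above. At day 4.5 the count of members called was 0 of 4, with LHX1 alone under an unadjusted p of 0.05 and none called by DESeq2.

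The 2 starting days of the enzyme were compared at day 4.5, and 0 of the 4 genes passed the threshold (0.361% of genes tested were called in either direction). LHX1 had 1627, 189 and 899.8 CPM with the early start and 314, 98.4 and 376 CPM with the late one, higher in each line, a log2 difference of 1.73 ± 0.62 (adjusted p = 0.298; 0.0387 without the HAse1.5 library of line WT). EVX1 had 5.59, 5.19 and 11.6 CPM against 0.719, 1.56 and 0.641 CPM, groups that did not overlap (9.06% of genes lay apart in this direction), with a pooled ratio of 8.25 (exact counting interval 2.95 to 32.0) and an adjusted p of 0.140. MIXL1 went the other way, with 3.72, 7.78 and 6.98 CPM against 9.34, 16.4 and 18.0 CPM, also not overlapping (7.26% of genes), a difference of -1.29 ± 0.54 (adjusted p = 0.385). All 3 had an unadjusted p under 0.05 in edgeR's quasi-likelihood test, and DESeq2 called none.

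**Figure D4:**
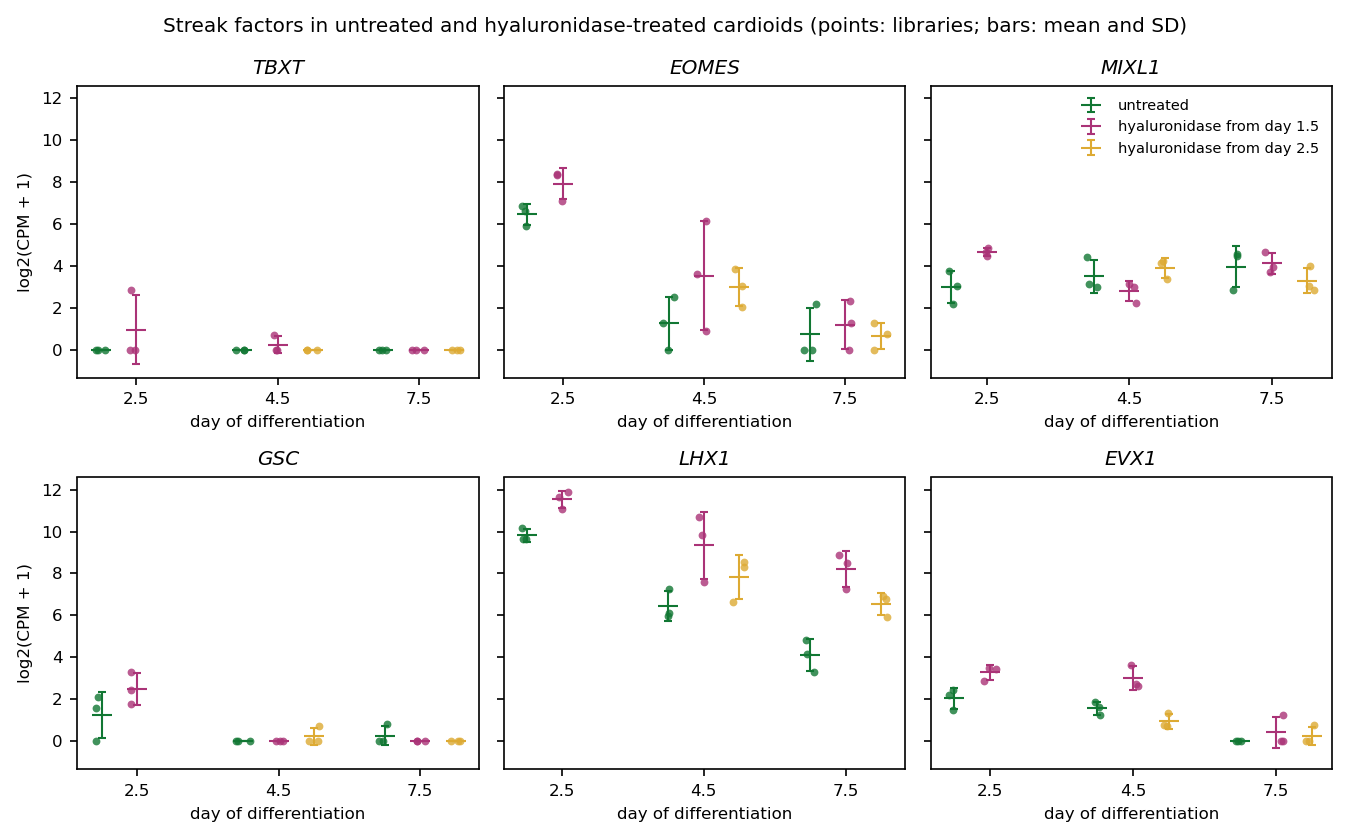
Level of each gene as log2(CPM + 1) (y axis) against day of differentiation (x axis) in untreated (green), HAse1.5 (purple) and HAse2.5 (yellow) cardioids; points are single libraries and bars the mean and SD. LHX1 in HAse1.5 lies above untreated at all 3 days, and EOMES in HAse1.5 spans 0.864 to 68.3 CPM at day 4.5.

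The fall from day 2.5 to day 4.5 was also followed within the enzyme arm. In untreated cardioids EOMES fell by -5.43 ± 1.03 and LHX1 by -3.38 ± 0.67, 2 of the 4 tested genes, where 11.0% of genes tested were called lower (adjusted p 8.98e-04 and 0.00141, edgeR's quasi-likelihood test). The MIXL1 rise called in WT of the genotype arm was not called in untreated cardioids. There the MIXL1 change was 0.43 (interval -0.68 to 1.53, adjusted p = 0.613, same test). Untreated MIXL1 went from 3.57, 7.15 and 12.3 CPM to 6.82, 20.4 and 7.65 CPM. In HAse1.5, EOMES fell by -3.41 ± 0.76, MIXL1 by -2.16 ± 0.53 and LHX1 by -1.92 ± 0.62, 3 of the 4, again where 11.0% of genes were called lower (adjusted p 0.00326, 0.00429 and 0.0322). EVX1 did not pass the threshold there (-0.41, interval -1.71 to 0.90; adjusted p = 0.697). The LHX1 call in HAse1.5 held in 5 of 11 alternatives, and was lost without any filter (0.0861), with only these groups (0.0584), and without the TNNI1 (0.0883) or TNNT2 (0.0699) library of day 2.5 or the WT (0.0986) or TNNT2 (0.0955) library of day 4.5.

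The fall in HAse1.5 was not shown to differ from that in untreated cardioids for any of the 4 genes (0.706% of genes tested were called). The difference was 1.45 for LHX1 (interval -0.37 to 3.28; adjusted p = 0.704) and -2.59 for MIXL1 (interval -4.14 to -1.04; adjusted p = 0.138, and 0.0262 with no filter on low counts). MIXL1 alone had an unadjusted p under 0.05 in edgeR's quasi-likelihood test, and DESeq2 called none.

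**Figure D5:**
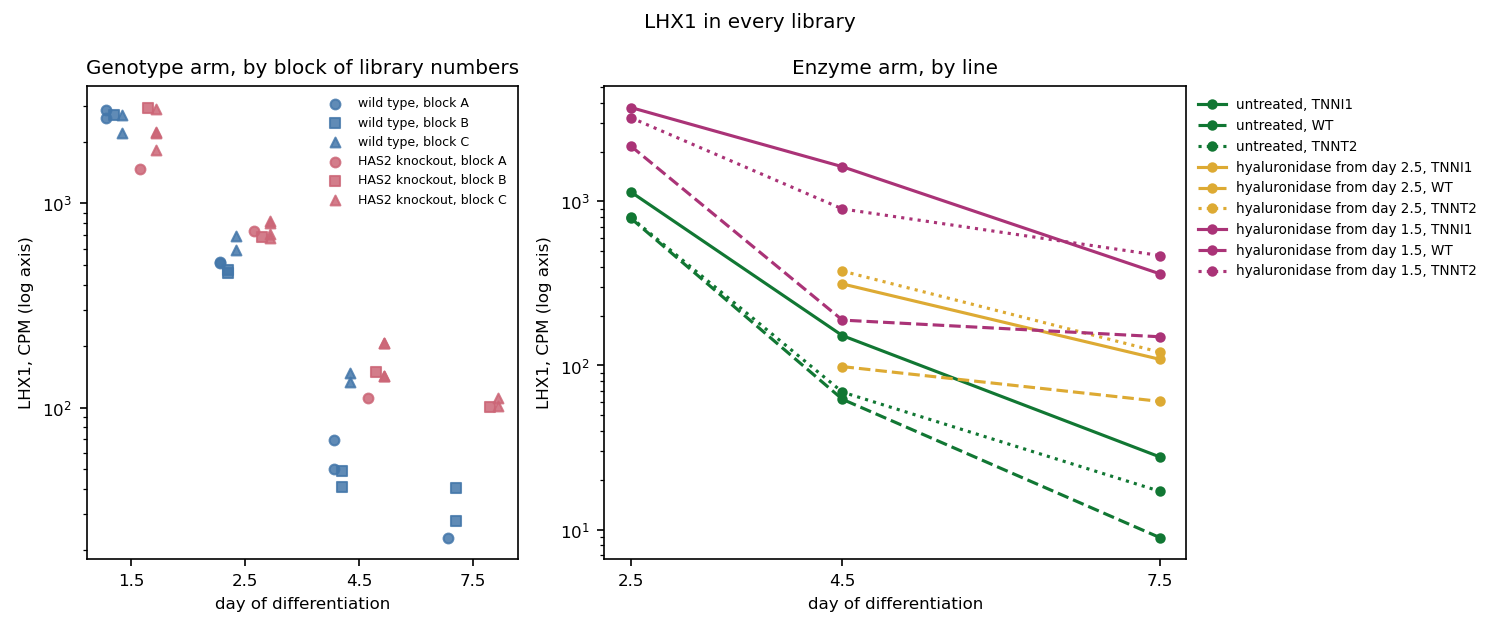
LHX1 in every library, in CPM on log axes (y) against day (x): left, the genotype arm with marker shapes for the stretches A, B and C of library numbers (blocks in the key); right, the enzyme arm with 1 line drawn for each treatment and cell line. WT libraries of stretch C at day 4.5 (134 and 148 CPM) lie among the KO libraries, and HAse1.5 lies above HAse2.5 and untreated within each cell line.

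The effect of KO and that of early enzyme were set against each other at day 2.5 in a fit of all 65 libraries, which share no controls. Of the 6 genes, 0 differed by this test, where 0.0925% of 14047 genes tested were called. For TBXT the test could not decide, since the WT and untreated libraries of day 2.5 were all at 0 counts. The difference of the KO effect from the enzyme effect was 0.76 for MIXL1 (interval -0.47 to 1.99), -1.33 for LHX1 (interval -2.39 to -0.28), -1.45 for EOMES (interval -2.97 to 0.07) and -2.45 for EVX1 (interval -4.01 to -0.89), with adjusted p of 0.992, 0.772, 0.992 and 0.450 by edgeR's quasi-likelihood test. For GSC, near the floor, it was -1.58 (interval -3.76 to 0.60, adjusted p = 0.992, same test). LHX1 and EVX1 had an unadjusted p under 0.05, and DESeq2 called none.

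Ordered by mean CPM over the 16 groups, each gene had its 2 day 1.5 groups and the HAse1.5 group of day 2.5 among its highest levels. For LHX1 the HAse1.5 group of day 2.5 overlapped the day 1.5 groups; for the other 5 genes it was the next below them, with no overlap. The step down was large: MIXL1 had a mean of 1561 CPM in WT at day 1.5 and 24.4 CPM in this group. TBXT had 67.5 and 2.08 CPM, the latter from the TNNT2 library alone. Of 15 neighbouring pairs of groups in this order, 1 did not overlap for TBXT, MIXL1, GSC and EVX1 each, 2 for EOMES and 3 for LHX1. The 3 for LHX1 were KO at day 1.5 (2262 CPM) above untreated at day 2.5 (910.2 CPM), KO at day 4.5 (159.8 CPM) above KO at day 7.5 (104 CPM), and WT at day 4.5 (81.9 CPM) above WT at day 7.5 (30.5 CPM). All other neighbours overlapped in their libraries.

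Across the 16 group means of log2 CPM, the members resembled each other to different degrees, as a description over groups that share libraries of 2 arms and a common time course. Pearson's r was highest between TBXT and MIXL1 (0.980), whose upstream windows are printed above, and lowest between MIXL1 and LHX1 (0.572). TBXT and GSC had 0.977, and EOMES and LHX1 0.911. Among 13996 genes, the most alike were GLIPR1L1 (0.993) and APOL3 (0.991) to TBXT, TBXT and TNFRSF11B (0.973) to MIXL1, FGF17 (0.989) and ATP12A (0.988) to GSC, MYO3B (0.983) and TMED2 (0.980) to EOMES, SP5 (0.961) and AHCTF1 (0.959) to EVX1, and LHX1-DT (0.980) and WDR90 (0.945) to LHX1.

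LHX1-DT is a transcript that starts beside LHX1 on the opposite strand, and its mean moved from 12.6 to 84.4 CPM between untreated and HAse1.5 at day 4.5 and from 6.39 to 64.0 CPM at day 7.5, and from 9.75 to 22.7 CPM between WT and KO at day 7.5. LHX1 (chr17:36936785-36944612, plus strand) is overlapped by the antisense gene AC243773.1, which had 0 counts in all 65 libraries, and EVX1 (chr7:27242700-27250493, plus strand) by EVX1-AS, with group means of 2.01 CPM or less. The strand setting of the counting is not given in the sources used here, so reads of EVX1 and EVX1-AS cannot be told apart. The other genes lie at chr6:166157656-166168700 (TBXT, minus), chr3:27715949-27722711 (EOMES, minus), chr1:226223618-226227054 (MIXL1, plus) and chr14:94768216-94770230 (GSC, minus) on GRCh38.

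Signals and targets around these factors were followed in 4 lists, over the day from 1.5 to 2.5 in WT first, where 15.0% of all genes tested were called higher and 15.1% lower. Of 13 genes for inducing signals and their co-receptors, 8 were tested, 3 rose and 4 fell. The ligands NODAL (from 20.1 ± 8.33 to 1.02 ± 0.934 CPM) and FGF17 (from 105 ± 24.8 to 2.59 ± 1.84 CPM) fell with the factors, while the NODAL co-receptor CFC1 went from 0 to 135 ± 32.1 CPM (SD, n = 5 and 6). Of 12 feedback targets of NODAL and WNT, 11 were tested, 2 rose and 8 fell: the antagonist CER1 went from 2143 ± 1742 to 1.37 ± 1.31 CPM and the WNT antagonist DKK4 from 183 ± 112 to 0.0850 ± 0.208 CPM, while the NODAL antagonist LEFTY2 rose from 2.82 ± 2.37 to 44.8 ± 36.3 CPM.

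Of 14 genes of emerging mesoderm, 11 were tested, 4 rose and 5 fell over that day in WT. MESP1 and MESP2, early mesoderm factors downstream of EOMES and TBXT, went from 93.9 ± 21.6 to 2.94 ± 1.76 and from 68.1 ± 28.4 to 3.84 ± 2.17 CPM, and PDGFRA, a receptor of mesoderm cells, rose from 71.9 ± 20.0 to 418 ± 81.8 CPM. Of 8 genes of anterior streak and endoderm, 7 were tested, 2 rose and 4 fell, among them OTX2 from 218 ± 19.4 to 42.6 ± 13.9 CPM and HHEX from 20.5 ± 8.50 to 4.24 ± 3.25 CPM. The median log2 changes of the 4 lists were -1.03, -2.66, -1.09 and -1.17, against 0.01 over all genes tested.

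At day 2.5, 3 genes of these lists stood beside MIXL1 as higher in KO. MESP2 was 42.4 ± 16.6 CPM in KO and 3.84 ± 2.17 CPM in WT (log2 difference 3.36, adjusted p = 3.07e-05), MESP1 18.0 ± 3.98 and 2.94 ± 1.76 CPM (2.49, adjusted p = 0.00225) and CER1 15.5 ± 6.44 and 1.37 ± 1.31 CPM (3.65, adjusted p = 0.0139), by edgeR's quasi-likelihood test (SD, n = 6 and 6). That is 2 of 11 tested genes of emerging mesoderm, 1 of 11 feedback targets, 0 of 8 signals and 0 of 7 anterior genes, against 0.493% of all genes, with none lower in KO. With early enzyme at day 2.5, MESP2 was 59.1 ± 25.4 CPM against 2.80 ± 1.74 CPM untreated (4.30, adjusted p = 0.00147), and PDGFRA (90.8 ± 52.7 against 365 ± 117 CPM) and the mesoderm factor GATA6 (30.7 ± 6.30 against 97.3 ± 14.3 CPM) were lower, among 10 tested genes of emerging mesoderm, where 0.243% of all genes were called higher and 0.894% lower; the other 3 lists had 0 called of 6, 8 and 6 (SD, n = 3 and 3).

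At day 4.5, where LHX1 was higher in KO, 4 of 7 tested genes of anterior streak and endoderm were also called higher and none lower, against 1.14% of all genes called higher and 2.60% lower. They were OTX2 (50.1 ± 9.56 CPM in KO and 17.3 ± 3.16 CPM in WT), HHEX (40.0 ± 10.1 and 14 ± 8.58 CPM), FOXA3 (10.9 ± 6.14 and 2.78 ± 2.72 CPM) and CXCR4 (3.98 ± 0.912 and 0.847 ± 0.463 CPM, with WT at the floor), with adjusted p between 4.46e-05 and 0.0348 by edgeR's quasi-likelihood test (SD, n = 6 and 6). Of 8 signals, APELA was higher and the NODAL co-receptor TDGF1 lower in KO (15.8 ± 6.57 against 3.27 ± 1.88 CPM, and 0.186 ± 0.291 against 5.96 ± 1.82 CPM). TDGF1 was at the floor in KO, and APELA lay just under the threshold (adjusted p = 0.0475, edgeR's quasi-likelihood test). Of 11 feedback targets FST was higher (258 ± 43.4 against 108 ± 35.9 CPM), and of 11 genes of emerging mesoderm PDGFRA was higher (403 ± 59.4 against 179.8 ± 54.9 CPM) and HAND1 lower (164 ± 40.5 against 409 ± 154 CPM).

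With early enzyme at day 4.5, 1 of 6 signals was called higher, BMP4 (687 ± 277 against 119.5 ± 41.4 CPM untreated), where 1.07% of all genes were called higher and 2.41% lower (SD, n = 3 and 3). None of 10 tested genes of emerging mesoderm and none of 6 of anterior streak and endoderm was called. The genes named for day 4.5 were chosen after their values were seen.

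Marker genes of other cells moved beside MIXL1 and LHX1, and their part in the results was not tested. At day 2.5 the summed CPM of 6 cardiomyocyte markers was 17.9 to 56.7 in KO and 78.2 to 312 in WT, and 48.0 to 78.3 in HAse1.5 and 187 to 389 untreated; MYH7 was at 0 in all 4 groups. At day 4.5 it was 3346 to 12039.5 in KO and 10269 to 20695 in WT, and 519 to 3066 in HAse1.5 and 7441 to 16468 untreated. At day 7.5 it was 19564 to 23569.7 in KO and 24469 to 25822 in WT, and 6592 to 10430.1 in HAse1.5 and 23566 to 29799.6 untreated.

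The summed CPM of 6 pluripotency markers at day 4.5 was 196 to 283 in KO and 34.9 to 218 in WT, with NANOG at 0 in WT, and 302 to 367 in HAse1.5 and 158 to 232 untreated, with NANOG at 0 in untreated. The 5 paraxial mesoderm markers summed to 31.0 to 53.4 CPM in KO and 3.57 to 31.2 CPM in WT at day 2.5, and to 8.79 to 30.9 CPM in HAse1.5 and 3.57 to 3.93 CPM untreated, with MSGN1 at 0 in all 4 groups. The 5 notochord markers, from a tissue that keeps TBXT on, summed to 16.2 to 28.0 CPM in KO and 20.0 to 64.8 CPM in WT at day 2.5; NOTO was at 0 in KO, untreated and HAse1.5 at day 2.5 and SHH in WT, KO and HAse1.5. The 5 endoderm markers summed to 31.8 to 89.3 CPM in KO and 6.59 to 50.7 CPM in WT at day 4.5, and to 122 to 302 and 41.1 to 94.4 CPM at day 7.5; in HAse1.5 at day 7.5 they summed to 1.44 to 9.76 CPM against 50.4 to 314 CPM untreated. Endothelial markers (5) summed to 1.95 to 55.0 CPM from day 2.5 on, and of the 5 neural markers OTX2 alone had counts in most groups after day 1.5.

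LHX1 at the later days was set beside 7 genes of intermediate mesoderm, a list drawn up after the levels of LHX1 were seen. Their summed CPM was 24.4 to 68.3 in KO and 20.3 to 56.0 in WT at day 4.5, and 5.21 to 19.9 and 9.77 to 16.4 at day 7.5. In the enzyme arm it was 62.2 to 363 in HAse1.5 and 40.9 to 78.6 untreated at day 4.5, and 54.6 to 62.0 and 13.4 to 51.2 at day 7.5. Most of this sum was GATA3, which was called higher in HAse1.5 at day 4.5 (185 ± 152 against 45.4 ± 6.92 CPM; adjusted p = 0.0222, edgeR's quasi-likelihood test), while WT1 was called lower (0 in all 3 libraries against 14.1 ± 15.0 CPM; adjusted p = 0.0478; SD, n = 3 and 3). PAX2 was 11.0 to 25.6 CPM in HAse1.5 and 1.02 to 7.15 CPM untreated at day 2.5, without a call, and 1.73 to 4.96 CPM and 0 at day 4.5. At day 7.5 PAX2 and PAX8 were at 0 in both groups.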

How the data were processed

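The deposited table holds whole-number read counts per Ensembl gene, made with featureCounts of Subread 1.6.2 on hg38, per the submitters' processing notes; aligner and strand setting are not given in the sources used here. All 58735 IDs occur in GENCODE 29 (positions, GRCh38), and 58207 had a symbol; 4 columns of no listed sample were not used. Libraries were grouped from their titles. Members and lists were chosen with earlier results of these data known.

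Counts were fitted with edgeR 4.0.16 (R 4.3.3), separately for the genotype arm (41 libraries) and the enzyme arm (24), with filterByExpr (minimum count 10), TMM factors, 1 mean per group and robust quasi-likelihood F-tests, two-sided, adjusted by Benjamini-Hochberg over all genes tested (threshold 0.05). Log2 CPM used a prior count of 2. Alternatives were DESeq2 1.42.0, no filter, only the groups compared, blocks and leaving out each library. Named genes are the 6 members, the 2 genes most alike each, and per list the 2 highest and 2 lowest called in 3 comparisons. The edgeR fit was tested on simulated counts for KO against WT and for HAse1.5 against untreated, both at day 2.5. The simulation fitted only the groups compared, gave all genes the same dispersion and held no effect of line, clone or stretch. It therefore does not check the fit against such effects in these data. Enzyme-arm numbers mark lines and pair the libraries (15 of 21 pairs with r over 0.1), and R numbers do not (9 of 32). Library names of the genotype arm pair libraries across days (38 of 51), and the main fit left them out. Libraries of 1 group differed from each other by more than counting noise in all 115 pairs (chi-square over degrees of freedom 2.10 or more); PCR reads without molecular identifiers are not independent, and floors and counting intervals cover counting error alone. The list of feedback targets in HAse1.5 at day 4.5 is not reported here.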

Additional observations from a re-analysis of the deposited data

Results flagged for a closer look

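Among 32 sets of 4 to 10 libraries (a gene in a group), 5 had a library whose gap to its nearest neighbour took most of the whole range. Chance gives about 1 in 20 for independent values away from the floor. Here the sets share libraries, and those below from days 2.5 and 4.5 lie near the floor. The rate therefore cannot show an excess over chance. TBXT in KO at day 2.5 had 4.81 CPM in cl4_R1 and 0.637 CPM in the next library (gap 0.868 of the range). EOMES had 8.66 CPM in the WT library TNT2 at day 4.5, with 0.720 CPM next (0.917), and 2536 CPM in the KO library cl4_R1 at day 1.5, with 1459 CPM next (0.738). MIXL1 had 2824 CPM in the KO library cl14_R1 at day 1.5, with 1832 CPM next (0.713). GSC had 4.61 CPM, or 7 counts, in the WT library cl43_WT_UT at day 4.5, with 0.360 CPM next (0.922).

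The change of MIXL1 differed between KO and WT by a test of the difference itself (edgeR's quasi-likelihood test, Benjamini-Hochberg adjusted). From day 1.5 to 2.5 the log2 changes differed by 2.26 (adjusted p = 0.0382), and from day 2.5 to 4.5 by -2.87 (adjusted p = 0.00136). Both rest on the same libraries of day 2.5 and are not separate results.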

How the results depend on the processing

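Of 32 calls of a member, 26 were kept in every alternative that tested the gene, and 6 were lost in at least 1: LHX1 for WT from day 4.5 to 7.5, KO against WT at days 4.5 and 7.5, HAse1.5 at day 4.5 and HAse1.5 from day 2.5 to 4.5, and MIXL1 for the difference of changes from day 1.5 to 2.5. The number of members called changed as follows. Fitting only the groups compared gave 0 in place of 1 for WT from day 4.5 to 7.5, KO against WT at day 4.5, the difference of changes from day 1.5 to 2.5, and HAse1.5 at day 4.5, 1 in place of 0 for HAse1.5 at day 2.5, 2 in place of 3 for HAse1.5 from day 2.5 to 4.5, and 3 in place of 4 for WT from day 2.5 to 4.5, where EVX1 did not pass the filter. DESeq2 gave 5 in place of 3 for KO from day 2.5 to 4.5 and 1 in place of 0 for HAse2.5 at day 7.5. With no filter, 1 in place of 0 differed between the HAse1.5 and untreated changes from day 2.5 to 4.5, and in HAse1.5 over these days LHX1 lost and GSC gained a call, for 3 as before. A replicate block by line, which pairs the libraries, gave 1 at day 2.5 and 2 at day 4.5 for HAse1.5, and 1 at day 7.5 for HAse2.5; it changed no other call of a member. A replicate block by library name gave 1 in place of 0 for KO from day 4.5 to 7.5, and one by R number, which does not pair libraries, 2 in place of 1 for KO against WT at day 4.5. Leaving out single libraries gave 0 to 1 for WT from day 4.5 to 7.5, 4 to 5 for WT and 3 to 5 for KO from day 2.5 to 4.5, 2 to 3 for HAse1.5 over the same days, 0 to 2 for KO at day 4.5, 0 to 1 at day 7.5 and for the difference of changes from day 1.5 to 2.5, 0 to 2 for HAse1.5 at day 4.5 and 0 to 1 for HAse1.5 against HAse2.5. The cause was not tested.

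Differences that had no call also changed sign. At day 1.5, leaving out libraries moved KO against WT between -0.16 and 0.23 for TBXT, -0.38 and 0.06 for EOMES, -0.03 and 0.23 for MIXL1, and -0.05 and 0.31 for GSC; a block of library numbers gave -0.10 for TBXT, and one of R numbers -0.18 for GSC. At day 2.5 the leave-out ranges were -0.09 to 0.17 for EOMES and -0.62 to 0.12 for GSC, with -0.11 for EOMES under the R-number replicate block. MIXL1 in HAse1.5 at day 7.5 moved between -0.48 and 0.13 when libraries were left out, and was 0.05 with the line as a replicate block. Values of TBXT and GSC after day 1.5 rest on 13 counts or fewer per library.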
